A study of Mus musculus with 24 samples.

Results

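Ifnb1, the gene of interferon-beta, and the genes that carry its signal were followed in mouse bone marrow-derived macrophages, which are macrophages grown from marrow cells, across 4 culture media with and without lipopolysaccharide (LPS). The 6 genes are Ifnb1, the receptor chains Ifnar1 and Ifnar2, the receptor kinases Jak1 and Tyk2, and Stat2. They were chosen as the named parts of this pathway, each by the probe set with the highest mean over 24 arrays among those that name the gene alone, and all 6 were among the 11785 genes tested. The macrophages came from C57Bl/6 mice and were plated overnight in DMEM and washed. Fresh medium then held no serum, or 5% fetal calf, mouse or human serum that had been heated at 56 °C for 30 min to inactivate complement. In each medium the cells were left as controls or given 25 ng/ml LPS, the bacterial ligand of Tlr4, and RNA was taken at 4 h. Each of the 8 groups held 3 arrays, 1 from each of the replicate experiments G, H and I. The labels give no genotype other than the strain, and name no sex or age of the mice. They do not say that each experiment used separate animals, so p-values measure the spread between these experiments.

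Interferon-beta is secreted after Tlr4 signals through the adaptor Ticam1 to the kinase Tbk1 and the transcription factor Irf3. It binds a receptor of the chains Ifnar1 and Ifnar2, which are held by the kinases Tyk2 and Jak1, and these phosphorylate Stat2. With Irf9, Stat2 takes part in a complex called ISGF3 that switches on a broad set of antiviral genes, and macrophages are known to answer LPS with such a loop.

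The values are the authors' log2 levels. Array medians ran from 5.04 to 5.13, and the correlation across genes between arrays of a group ran from 0.983 to 0.992. All 8 macrophage markers lay above the level of the filter on low values (5.08) on every array, with array means of 11.17 to 11.67. All 5 lymphocyte markers measured and 5 of 6 fibroblast markers lay below it on every array, as did 3 of 5 markers of conventional dendritic cells. Of the 6 markers of plasmacytoid dendritic cells, cells known for making much type I interferon, 3 lay above it on every array and 1 below it, and the array means ran from 6.45 to 7.02. Those above it were Tcf4, Cox6a2 and Klk1, with means over all arrays of 11.13, 7.89 and 7.22. Siglech, Ccr9 and Ly6d had means of 5.16, 4.76 and 4.27, near or below the filter level. Of the 5 neutrophil markers 3 lay above it and 1 below it on every array, with array means of 4.82 to 5.86. Their part in the results was not tested. In the human serum control group, experiment H stood apart for several genes that LPS raised, as given below. Some of these genes were also highest in experiment H among mouse serum and no-serum controls. Differences are log2 values ± the standard error (SE) of the fit in limma with 3 arrays per group, intervals are 95%, and a gene is called where its p, adjusted over all genes tested, is under 0.05.

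Ifnb1 was low on all control arrays and rose in every medium with LPS, to a level that depended on the serum. Without LPS its 12 arrays lay between 2.37 and 3.46. With LPS in no serum it reached 9.68, 10.87 and 9.998 in experiments G, H and I, and in human serum 8.59, 9.32 and 9.37. In fetal calf serum it reached 7.68, 7.74 and 8.51, and in mouse serum 6.62, 7.70 and 6.89. Every array with LPS lay above every control array, and every array in no serum lay above every array in serum with LPS. The calf and mouse serum arrays overlapped, and the lowest human serum array lay just above the highest calf serum array.

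**Figure D1:**
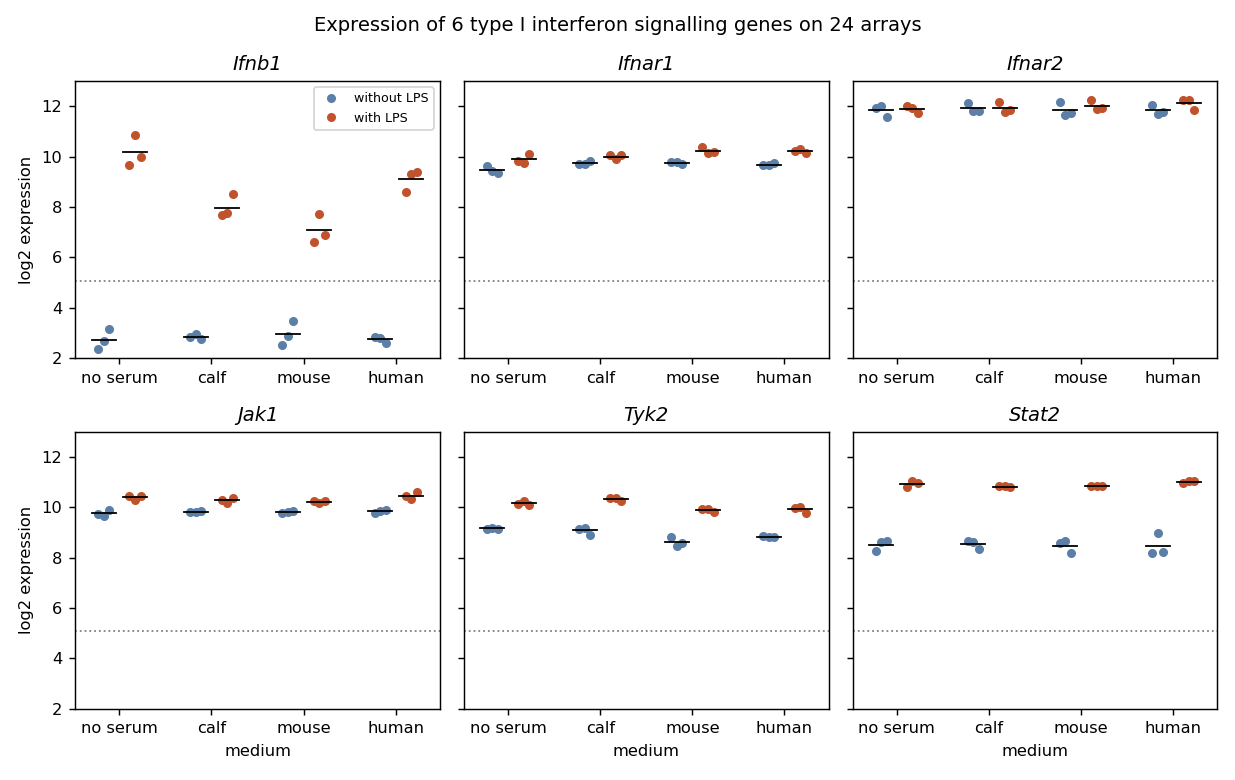
Log2 level of the 6 genes on each of the 24 arrays (y axis), 1 panel per gene, by medium (x axis). Blue points are arrays without LPS, red points arrays with LPS, black bars the mean of 3 arrays, and the dotted line the filter level of 5.08. With LPS the Ifnb1 means run from 7.07 in mouse serum to 10.18 in no serum, while those of Stat2 lie between 10.82 and 11.01.

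The LPS response of Ifnb1 was 7.45 ± 0.32 in no serum (adjusted p = 3.7e-15), 6.34 ± 0.32 in human serum (7.8e-14), 5.12 ± 0.32 in calf serum (2.9e-12) and 4.11 ± 0.32 in mouse serum (1.7e-10). These are 174-fold, 81.1-fold, 34.7-fold and 17.3-fold. Because the control arrays lay below the filter level, these folds depend on the background of the arrays. The sizes of the differences between media with LPS do not rest on the controls. The means with LPS lay above the filter level by 5.10 in no serum, 4.01 in human, 2.89 in calf and 1.99 in mouse serum. The SE and the calls of these differences do use the spread of the control arrays, since the fit takes 1 spread per gene from all groups. In such bulk samples fewer cells with a transcript and less of it per cell cannot be told apart.

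The segment of the Ifnb1 promoter that carries its matches to the cores bound by interferon regulatory factors and NF-kappaB is shown because these factors act downstream of Tlr4. It lies on the minus strand of GRCm38.p6 at chr4:88522889-88522965, from 171 to 95 bases before the start of the gene, in the RefSeq window of 250 bases before to 50 bases after the start.
Ifnb1: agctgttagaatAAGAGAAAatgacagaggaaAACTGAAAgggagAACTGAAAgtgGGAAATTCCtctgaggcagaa
Capitals mark 3 matches to AANNGAAA, which start 159, 139 and 126 bases before the gene, and 1 place that matches GGANNTTCC on both strands, 115 bases before it. AANNGAAA occurs on either strand in 23.9% of the 32851 windows of 300 bases, and GGANNTTCC in 4.26%. A match is a description, not a site or a cause.

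Among arrays with LPS, Ifnb1 was highest in no serum, followed by human, calf and mouse serum, over a span of 8.66-fold. Mouse serum was below no serum, with a difference of -3.12 (interval -3.78 to -2.45, adjusted p = 2.6e-07), and the difference was -3.07, -3.17 and -3.11 in experiments G, H and I. Calf serum was below it, with a difference of -2.21 (-2.87 to -1.55, 4.9e-05), with -2.00, -3.13 and -1.49 in the experiments. Human serum was below it, with a difference of -1.09 (-1.75 to -0.43, 0.0477), with -1.09, -1.55 and -0.63. The direction was the same in 3 of 3 experiments for each serum, and the size varied least in mouse serum. The human serum call lay at the threshold and was lost in 17 of 27 fits that left out an array or an experiment, where the difference ran from -1.34 to -0.75. These 3 comparisons share the no-serum arrays.

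Between sera with LPS, Ifnb1 was lower in mouse than in human serum, with a difference of -2.02 (-2.69 to -1.36, adjusted p = 0.0010), which is 4.07-fold, and higher in human than in calf serum by 1.12 (0.46 to 1.78, 0.0369). The human against calf call was lost in 7 of the 27 fits that left out an array or an experiment, where the difference ran from 0.89 to 1.38. Mouse and calf serum differed by -0.91 (-1.57 to -0.25, 0.116), without a call. The difference was -1.06, -0.04 and -1.62 in experiments G, H and I, and with the experiment as a block it was called (0.0482). The mouse against human call was lost without experiment I (-1.80, 0.0793). Without LPS no medium differed by a call and the means spanned 0.22, where mouse serum was above no serum by 0.22 (-0.44 to 0.88, 0.815).

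The difference in the LPS response itself followed the same order. Relative to no serum it was -3.33 in mouse serum (-4.27 to -2.40, adjusted p = 3.4e-05), -2.33 in calf serum (-3.26 to -1.39, 0.0054) and -1.10 in human serum (-2.04 to -0.17, 0.191), the last without a call. In mouse serum the 3 experiments gave -3.24, -3.34 and -3.42. The calf serum call was lost without experiment H (-1.80, 0.219). The response in mouse serum was below that in human serum, with a difference of -2.23 (-3.16 to -1.29, 0.0176), and this call was lost in 7 of the 27 fits, without any 1 experiment among them, where the difference ran from -2.55 to -1.68. Mouse against calf serum (-1.004, 0.302) and human against calf serum (1.22, 0.147) were not called.

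Other ligands of the same receptor gave little signal. Of 18 type I interferon genes written down 9 were on the array and 4 passed the filter, namely Ifnb1, Ifna1, Ifna5 and Ifnz, while Ifna2, Ifna4, Ifna9, Ifna11 and Ifnab did not. Averaged over media, Ifna5 rose by 0.61 ± 0.11 (adjusted p = 2.5e-05) while Ifna1 differed by 0.11 (-0.11 to 0.34, 0.336). For Ifnz the mean over media was 0.40 ± 0.15 (0.020), but the media differed in sign, with -0.41 in no serum (0.251), 0.24 with calf (0.498), 0.75 with mouse (0.0398) and 1.00 with human serum (0.0072). These levels lay close to the filter level, and the probe sets of Ifna1 and Ifna5 are marked by their names as possibly binding related genes. None of these 3 genes was called between a serum and no serum with LPS.

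Of the 6 genes 5 were called higher with LPS in every medium, the exception being Ifnar2, against 19.8% of all genes tested in no serum, 20.8% with calf, 17.8% with mouse and 18.4% with human serum. For the mean over media the same 5 were called, where 28.9% of all genes were called higher and 50.5% lower. The median change of the 6 was 0.84, beside -0.18 for all genes tested. Called changes ranged from 0.42 for Ifnar1 to 5.76 for Ifnb1.

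**Figure D2:**
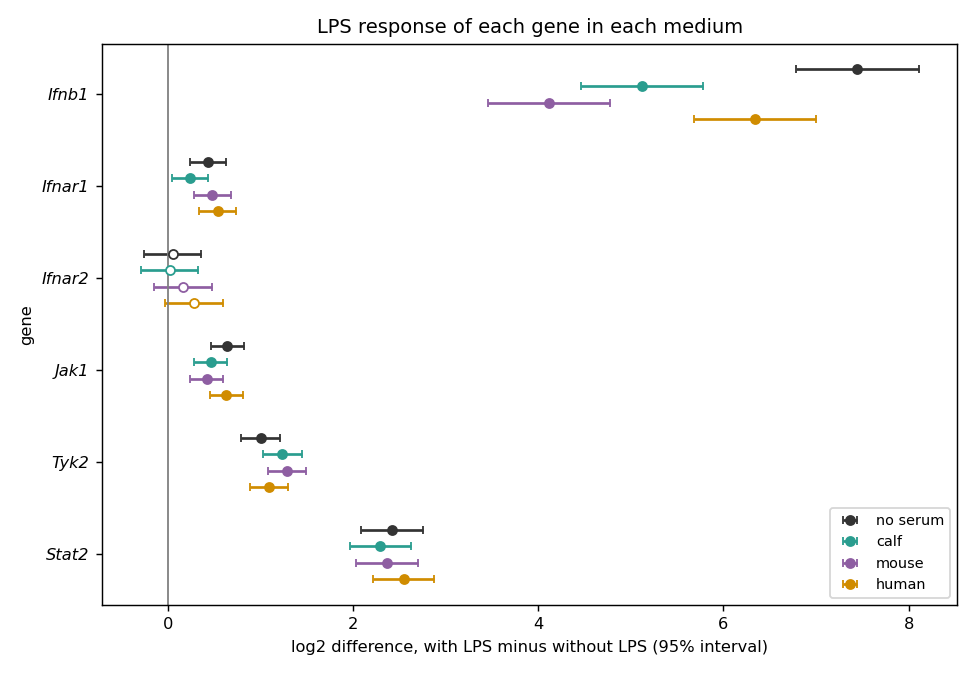
LPS response of the 6 genes in each medium, as the log2 difference with its 95% interval (x axis) from 3 arrays with and 3 without LPS. Filled points are called and open points are not, and the Ifnb1 response falls from 7.45 in no serum to 4.11 in mouse serum while the responses of Stat2 lie between 2.29 and 2.54.

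Ifnar1, the receptor chain that Tyk2 holds, rose slightly with LPS in each medium. Its controls measured 9.61, 9.44 and 9.35 in no serum, and its arrays with LPS 9.84, 9.75 and 10.10. In mouse serum controls measured 9.77, 9.80 and 9.71, and arrays with LPS 10.38, 10.15 and 10.19. Arrays with LPS lay above controls in these media and also in calf serum (control 9.72, 9.72 and 9.85, LPS 10.05, 9.89 and 10.06) and human serum (control 9.65, 9.67 and 9.73, LPS 10.22, 10.29 and 10.15). The response was 0.43 in no serum (adjusted p = 0.00051), 0.24 with calf (0.0378), 0.48 with mouse (0.00023) and 0.53 with human serum (5.9e-05), each ± 0.10. The calf serum response was 0.19 to 0.29 and lost its call in 7 of the 27 fits with an array or experiment left out.

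With LPS, Ifnar1 was higher in mouse serum than in no serum by 0.34 (0.14 to 0.54, adjusted p = 0.0181), which is the opposite direction to Ifnb1. That call was lost without the mouse serum G array (0.27, 0.105), the no-serum G array (0.32, 0.0713) or the no-serum H array (0.27, 0.112) with LPS, and without experiment G or H. Human serum was above no serum by 0.32 (0.12 to 0.52, 0.0509) and calf serum by 0.10 (-0.10 to 0.30, 0.590), neither called, though the first was called with the experiment as a block (0.0411). Without LPS the no-serum arrays lay below all arrays in serum, with differences of 0.30 with calf (0.119), 0.30 with mouse (0.0519) and 0.22 with human serum (0.171), none called, while the block called the mouse serum difference (0.0413). The LPS response of Ifnar1 did not differ by a call between any of the media. A dimmer probe set of Ifnar1 was called higher with LPS in mouse serum, at 0.63 (0.0183), and not in the other media, where it gave 0.09 in no serum, -0.43 in calf and 0.42 in human serum. It was higher in mouse serum than in no serum with LPS by 0.88 (0.0084).

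Ifnar2, the chain that Jak1 holds, depended on the probe set. By the brightest one its 24 arrays lay between 11.58 and 12.25, the groups with and without LPS overlapped in every medium, and in each of the 6 serum groups the experiment G array was the highest. The responses were 0.05, 0.02, 0.16 and 0.28 in no serum, calf, mouse and human serum, and 0.13 over media (-0.03 to 0.28, adjusted p = 0.121). With the experiment as a block the human serum response (0.0113) and the mean (0.0136) were called. The other probe sets were called in every medium: one gave 0.66, 0.70, 0.71 and 1.21, with a mean of 0.82 ± 0.11 (9.0e-07), and the other 1.06, 1.00, 1.24 and 1.12, with a mean of 1.10 ± 0.13 (7.3e-08). Which transcripts each probe set reads was not analysed here. By none of the 3 probe sets was Ifnar2 called between a serum and no serum with LPS, where the brightest gave 0.04 with calf (-0.26 to 0.35), 0.13 with mouse (-0.18 to 0.44) and 0.23 with human serum (-0.08 to 0.54).

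**Figure D3:**
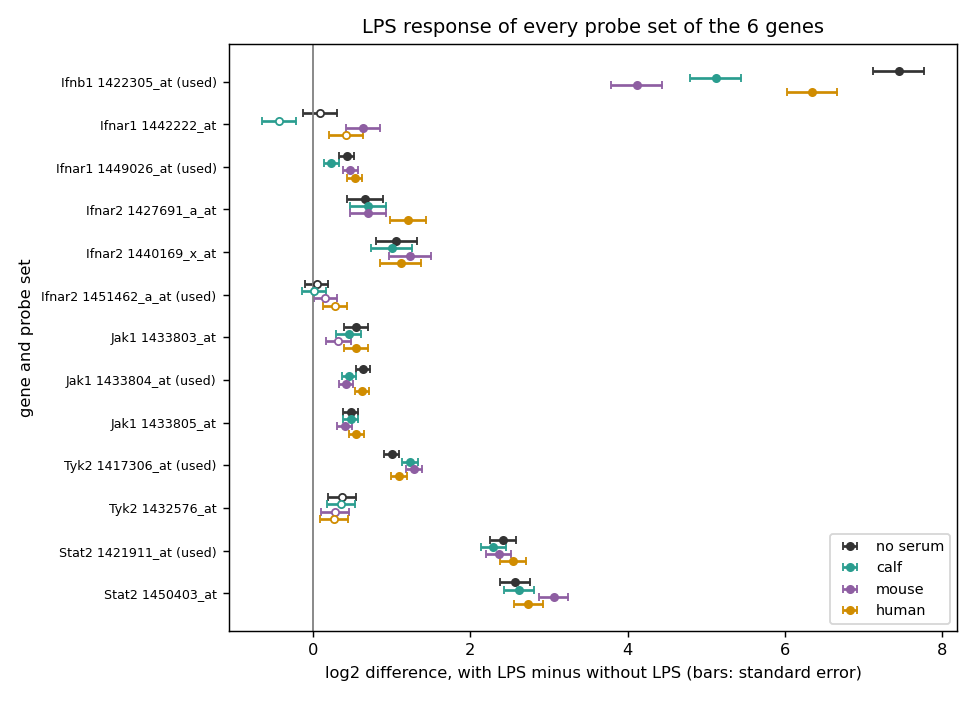
LPS response ± SE (x axis, log2 difference) of all 13 probe sets that name 1 of the 6 genes, in each of the 4 media. Filled points are called and open points are not. The brightest Ifnar2 probe set lies near 0 while the other 2 lie between 0.66 and 1.24.

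Jak1, the kinase on Ifnar2, rose in every medium. Its control arrays measured 9.72, 9.64 and 9.90 in no serum and 9.78, 9.80 and 9.83 in mouse serum. With LPS they measured 10.44, 10.28 and 10.45 in no serum, and 10.26, 10.16 and 10.25 in mouse serum. Arrays with LPS were above controls in both, and with LPS the mouse serum arrays lay below those in no serum. The response was 0.64 in no serum (adjusted p = 1.2e-06), 0.46 with calf (8.9e-05), 0.42 with mouse (0.00029) and 0.63 with human serum (1.9e-06). With LPS, Jak1 in calf (-0.11, -0.29 to 0.07), mouse (-0.17, -0.35 to 0.01) and human serum (0.07, -0.11 to 0.25) was not called against no serum.

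Tyk2, the kinase on Ifnar1, about doubled with LPS in every medium and had its own order among the media. Its control arrays measured 9.15, 9.19 and 9.13 in no serum, 8.84, 8.82 and 8.80 in human serum and 8.82, 8.45 and 8.57 in mouse serum. Control arrays in mouse and in human serum thus lay below all those in no serum. In calf serum controls measured 9.15, 9.19 and 8.91, which overlapped no serum. With LPS they measured 10.13, 10.27 and 10.08 in no serum, 10.36, 10.36 and 10.23 with calf, 9.94, 9.95 and 9.81 with mouse and 9.95, 9.9995 and 9.79 with human serum. Mouse and human serum arrays with LPS again lay below all those in no serum and calf serum.

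The LPS response of Tyk2 was 1.00 in no serum (2.00-fold), 1.23 with calf (2.35-fold), 1.29 with mouse (2.44-fold) and 1.09 with human serum (2.13-fold), each ± 0.10 and with adjusted p of at most 1.1e-08. No difference between media in this response was called. Without LPS, Tyk2 was lower than in no serum, with differences of -0.54 in mouse serum (-0.75 to -0.34, adjusted p = 0.00056) and -0.33 in human serum (-0.54 to -0.13, 0.0342), and lower in mouse than in calf serum, with a difference of -0.47 (0.0026). The human serum call was lost without any 1 of the 6 arrays it compares. The mouse serum calls against no serum and calf serum were lost without experiment H (-0.45, 0.0618, and -0.34, 0.174). With LPS the differences from no serum were 0.16 with calf (-0.05 to 0.37), -0.26 with mouse (-0.47 to -0.05, 0.0968) and -0.24 with human serum (-0.45 to -0.04, 0.217), none called, while mouse and human serum lay below calf serum, with differences of -0.42 (0.0127) and -0.40 (0.0157). The mouse against calf call was lost without the calf serum H or mouse serum I array with LPS, and the human against calf call without the calf serum G or H or the human serum I array with LPS, and each was lost without any 1 experiment. A second, dim probe set of Tyk2, with a mean of 5.09, rose by 0.32 over media (0.0027) and was not called in any single medium.

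Stat2, which joins Irf9 in ISGF3, rose in every medium, and no difference between media was called. Its control arrays measured 8.28, 8.62 and 8.65 in no serum, 8.64, 8.62 and 8.33 with calf, 8.57, 8.66 and 8.20 with mouse, and 8.19, 8.99 and 8.21 with human serum. With LPS they measured 10.79, 11.05 and 10.96 in no serum, 10.83, 10.86 and 10.79 with calf, 10.85, 10.84 and 10.83 with mouse, and 10.95, 11.05 and 11.03 with human serum. Every array with LPS lay above every control array, and the media overlapped both without and with LPS, apart from the human serum arrays, which with LPS lay above those in calf and mouse serum. On the human serum control array of experiment H, where Stat2 was highest among controls, Ifit1 measured 11.75 against 9.84 and 10.56 on the other arrays of that group, and Socs3 measured 7.001 against 4.01 and 4.09. Mx1 was highest in experiment H among controls in human (8.72), mouse (8.59 against 7.47 and 8.04) and no serum (8.89 against 8.19 and 8.40). In calf serum it was lowest in H (7.93), and Ifit1 gave the same order of H in these media.

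The Stat2 response was 2.42 in no serum (5.34-fold), 2.29 with calf (4.90-fold), 2.36 with mouse (5.15-fold) and 2.54 with human serum (5.83-fold), each ± 0.16 and with adjusted p of at most 2.4e-11. Without the human serum control of experiment H the human serum response was 2.81. With LPS, Stat2 differed from no serum by -0.11 with calf (-0.44 to 0.22, adjusted p = 0.764), -0.09 with mouse (-0.43 to 0.24, 0.797) and 0.08 with human serum (-0.26 to 0.41, 0.907), and its means spanned 0.18. In mouse serum, where Ifnb1 was lower, with a difference of -3.12, the interval of the Stat2 difference thus reached no lower than -0.43. The LPS response of Stat2 relative to no serum differed by -0.12 with calf (-0.60 to 0.35), -0.05 with mouse (-0.53 to 0.42) and 0.13 with human serum (-0.35 to 0.60). The second probe set of Stat2 rose by 2.57, 2.62, 3.06 and 2.74 in no serum, calf, mouse and human serum, and differed by -0.09 between mouse serum and no serum with LPS.

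The Stat2 promoter segment is shown because it holds a match to the core of the interferon-stimulated response element, GAAANNGAA, on the strand opposite to the gene. It lies on the plus strand of GRCm38.p6 at chr10:128270265-128270297.
Stat2: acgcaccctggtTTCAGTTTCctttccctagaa
Capitals mark the match, which starts 221 bases before the gene and overlaps 2 matches to AANNGAAA. GAAANNGAA occurs in 8.56% of the windows. TTCNNNGAA, the core bound by STAT dimers, occurs in 8.3% of windows and was found once each in the windows of Ifnar1 and Ifnar2, and the windows of Jak1 and Tyk2 hold none of these 4 cores.

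**Figure D4:**
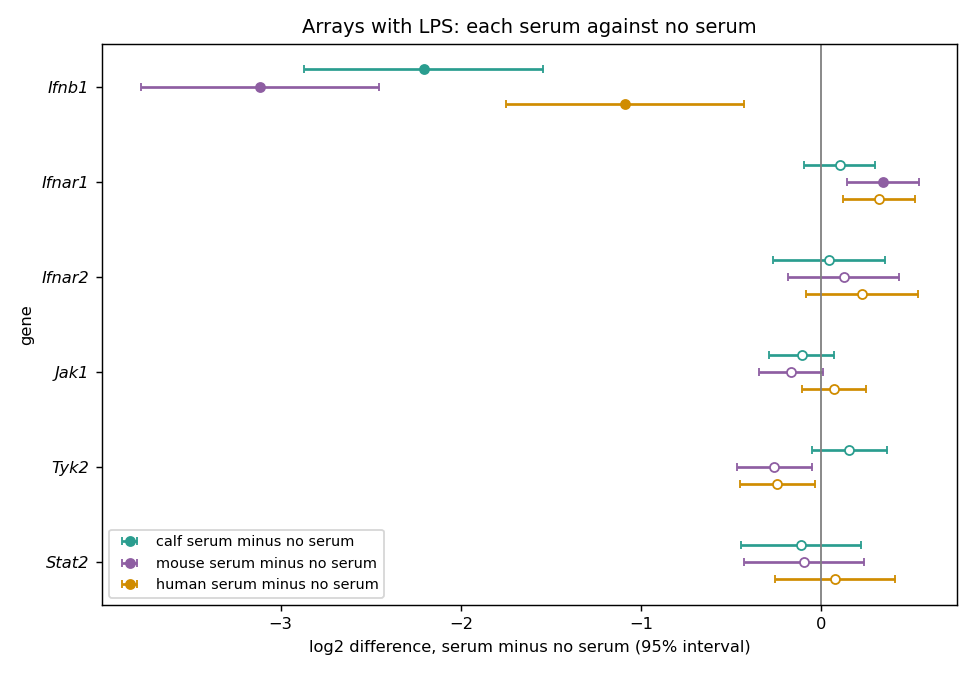
Difference between each serum and no serum among arrays with LPS for the 6 genes, as the log2 difference with its 95% interval (x axis), 3 arrays per group. Filled points are called and open points are not. Ifnb1 lies at -2.21, -3.12 and -1.09 in calf, mouse and human serum, and the differences of the other 5 genes lie between -0.26 and 0.34.

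With LPS, 1 of the 6 genes was called lower than in no serum in each serum, and it was Ifnb1. Of all genes tested, 5.85% were called lower with calf, 6.58% with mouse and 2.64% with human serum. Called higher were 0 of 6 with calf, 1 of 6 with mouse (Ifnar1) and 0 of 6 with human serum, against 5%, 6.82% and 2.6% of all genes. Between sera with LPS, the calls were Ifnb1 and Tyk2 in human against calf serum (6.27% of all genes called), Tyk2 in mouse against calf serum (5.42%), and Ifnb1 in mouse against human serum (2.39%).

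Without LPS, Tyk2 was the only 1 of the 6 called, in mouse against no serum (9.81% of all genes called), human against no serum (10.4%) and mouse against calf serum (9.63%). None of the 6 was called in calf against no serum (2.96%), human against calf serum (14.7%) or mouse against human serum (5.25%). For differences in the LPS response, Ifnb1 alone was called, in calf against no serum (1.8%), mouse against no serum (6.46%) and mouse against human serum (0.628%). None was called in human against no serum (4.96%), mouse against calf serum (3.78%) or human against calf serum (4.6%).

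Across the 12 arrays with LPS, which share medium and experiment, the level of Stat2 correlated with that of Ifnb1 at r = 0.62, ranking 908 of 11784 genes. Jak1 gave 0.53, Tyk2 0.19, Ifnar2 -0.24 and Ifnar1 -0.54, ranking 1323, 3618, 7754 and 10328. The median over all genes was -0.055, with quartiles of -0.364 and 0.277. After the mean of each experiment was subtracted, Stat2 gave 0.59 and Jak1 0.79. A correlation does not measure size: the Stat2 means spanned 0.18 and those of Jak1 0.24, beside 3.12 for Ifnb1.

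Among the 3403 other genes called higher with LPS over media, the 6 most like Ifnb1 on these arrays were Rapgef2 (r = 0.98), Maff (0.95), Plk2 (0.95), Stard5 (0.95), Plscr1 (0.95) and Kdm5c (0.94). Their means spanned 0.53, 1.44, 0.90, 0.98, 1.12 and 0.40. Maff, a small transcription factor, measured 11.09, 11.19 and 11.20 with LPS in no serum, 9.86, 9.97 and 10.01 with calf, 9.49, 9.92 and 9.75 with mouse, and 10.22, 10.47 and 10.48 with human serum. Plscr1, a phospholipid scramblase that interferon is known to induce, had means of 12.40 in no serum, 12.09 in human, 11.73 in calf and 11.27 in mouse serum. In both genes no array in no serum overlapped an array in serum. Plscr1 differed from no serum by -0.66 with calf, -1.12 with mouse and -0.31 with human serum (-0.59 to -0.03, adjusted p = 0.253), the last without a call. These 6 genes were picked by their likeness to Ifnb1 on the same arrays. Their order among media thus follows in part from the choice and is no separate test. The probe set of Plscr1 is marked by its name as possibly binding related genes.

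The 18 tested genes of a list of interferon-stimulated targets, which ISGF3 is known to switch on, rose with LPS in every medium, and none of the 18 was called between a serum and no serum in the fit of all groups. Plscr1 is not in that list. The 18 were called higher with LPS in each medium, with a median of 2.86 over media beside -0.18 for all genes. The medians were 2.70 in no serum, 2.72 with calf, 3.04 with mouse and 3.02 with human serum. The largest responses over media were Oasl1 (6.21 ± 0.13), Mx2 (5.35 ± 0.13), Mx1 (4.59 ± 0.11) and Isg20 (4.53 ± 0.14), which encode an oligoadenylate synthetase-like protein, a pair of antiviral dynamin-like GTPases and an exonuclease. The smallest was Bst2 (0.83), the tethering factor of budding virus.

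Mx1 measured 12.60, 12.72 and 12.70 with LPS in no serum, 12.74, 12.86 and 12.61 with calf, 12.83, 12.73 and 12.70 with mouse and 12.69, 12.83 and 12.74 with human serum. The 4 media overlapped. Oasl1 measured 10.82, 11.18 and 10.96 in no serum and 11.36, 11.34 and 11.31 in mouse serum, where every array lay above those in no serum. With limma 0 of the 18 targets were called in each serum against no serum with LPS, and 0 had an unadjusted p under 0.05. The fit takes 1 spread per gene from all 8 groups, so these p-values and the intervals below rest in part on the controls. Standard deviations of 3 arrays ran from 0.10 to 0.97 in controls and 0.02 to 0.05 with LPS for Ifit1. They ran from 0.17 to 0.69 and 0.03 to 0.18 for Oasl1, and from 0.04 to 0.57 and 0.07 to 0.13 for Mx1. Of all genes tested, 5.85% were called lower with calf, 6.58% with mouse and 2.64% with human serum.

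With LPS the median difference of the 18 targets from no serum was 0.01 with calf, -0.03 with mouse and 0.01 with human serum, beside 0.03, 0.02 and 0.01 for all genes. Single targets ran from -0.21 (Isg20) to 0.16 (Mx2) with calf, from -0.15 (Isg20) to 0.35 (Oasl1) with mouse and from -0.10 (Oas3) to 0.24 (Oasl1) with human serum. The outermost interval bounds were -0.80 and 0.69 with calf, -0.74 and 0.89 with mouse, and -0.58 and 0.78 with human serum. Ifit1, Ifit2, Ifit3, Oas1a and Rsad2 had means over all arrays with LPS above 13, and Rsad2 had the highest at 14.36. The highest value of any probe set other than controls on any array was 14.41, which Rsad2 itself reached. Oas1a lay further below that value, with means from 12.97 in calf to 13.08 in human serum. Whether the range of the arrays limited these levels was not tested. In a fit of the 2 groups alone, Ifit1 (0.16, 0.0296) and Oasl1 (0.35, 0.0491) were called higher in mouse serum than in no serum. Calls of the targets in such fits of calf or human serum are not given here.

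**Figure D5:**
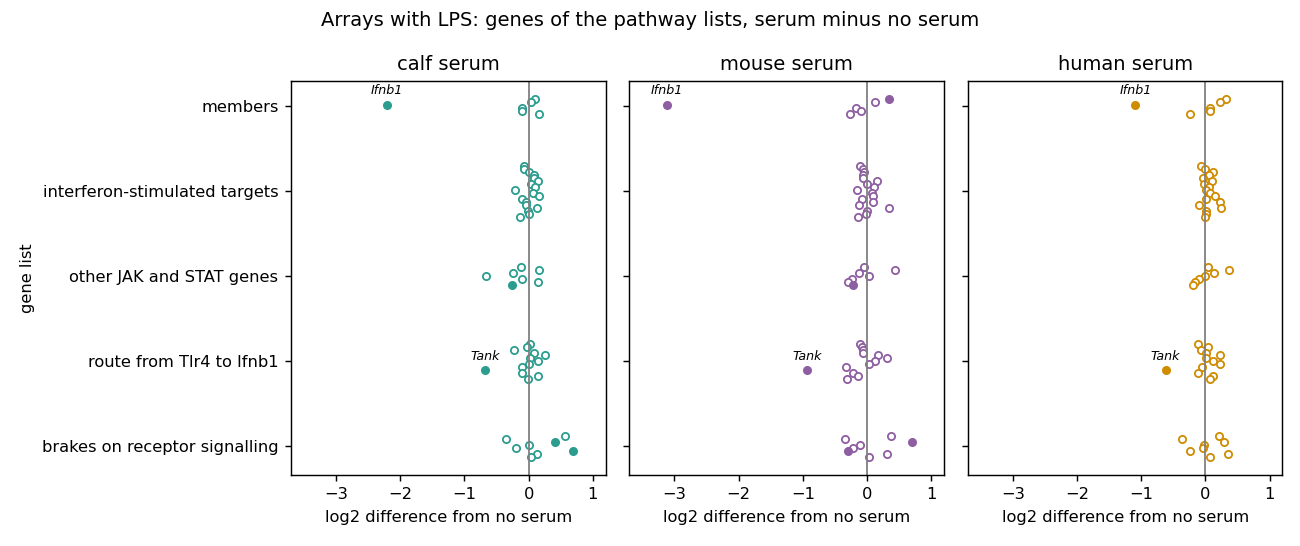
Log2 difference between each serum and no serum with LPS (x axis) for every gene tested in 5 lists, 1 panel per serum, 1 point per gene. Filled points are called and open points are not. All 18 interferon-stimulated targets are open and lie between -0.21 and 0.35, while Ifnb1 and Tank are called in every panel.

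Irf9, the DNA-binding partner of Stat2, rose by 1.25 ± 0.05 over media (adjusted p = 9.0e-17). With LPS it measured 10.40, 10.39 and 10.34 in no serum and 9.95, 9.80 and 10.07 in calf serum, and these groups did not overlap. It was lower in calf serum, with a difference of -0.44 (0.0043), while mouse (-0.08, -0.28 to 0.12) and human serum (-0.03, -0.24 to 0.17) were not called. Its LPS response in calf serum minus that in no serum was -0.59 (0.0226). The lower level in calf serum lost its call without experiment G (-0.43, 0.0754) or H (-0.36, 0.132). The difference in response lost it without any 1 experiment, the calf serum H or no-serum G or H array with LPS, or the calf serum I or no-serum H control.

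Among the 13 genes tested of the route from Tlr4 to Ifnb1, 7 rose over media and 4 fell. Of all genes tested 28.9% were called higher and 50.5% lower. Irf7, an interferon regulatory factor, rose by 2.49 ± 0.13. Tank and Azi2, adaptors of Tbk1, rose by 2.10 ± 0.09 and 2.07 ± 0.05, and the related kinase Ikbke by 1.71 ± 0.07. Irf3 fell by 0.64, Jun by 0.31, Crebbp by 0.19 and Atf2 by 0.18. The median of all genes was -0.18, so the last pair lay near it.

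With LPS, Tank was the only 1 of these 13 genes called between a serum and no serum, and it was lower in each serum. Of all genes tested, 5.85% were called lower with calf, 6.58% with mouse and 2.64% with human serum. Tank measured 10.46, 10.53 and 10.40 in no serum, 9.83, 9.47 and 10.06 with calf, 9.28, 9.74 and 9.55 with mouse, and 9.71, 9.90 and 9.92 with human serum. All arrays in no serum lay above all arrays in serum. Without LPS the Tank means were 8.12 in no serum, 7.42 with calf, 7.52 with mouse and 8.15 with human serum. The differences with LPS were -0.67 with calf (adjusted p = 0.0119), -0.94 with mouse (0.00051) and -0.62 with human serum (0.0342), and its LPS response did not differ by a call between media. The call in human serum was lost without any 1 of the 6 arrays compared and without experiment G or I. That in calf serum was lost without the calf serum H array with LPS and without any 1 experiment, where the difference ran from -0.84 to -0.48. With the mean of its probe sets Tank gave -0.46 in calf (0.0717) and -0.39 in human serum (0.223), without a call.

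Of the other JAK and STAT genes 5 of 7 rose over media, and Stat6, which carries the signal of interleukin-4, fell. Of all genes tested 28.9% were called higher and 50.5% lower. Stat5a rose by 3.08 ± 0.05, Jak2 by 2.92 ± 0.06, Stat3 by 1.60 ± 0.08 and Stat4 by 1.55 ± 0.16, and Stat6 fell by 0.72. With LPS 5.85% of all genes were called lower than in no serum with calf and 6.58% with mouse serum. Of this list only Stat6 was called against no serum with LPS. It was lower, with differences of -0.25 in calf (adjusted p = 0.0124) and -0.21 in mouse serum (0.0306). Both calls were lost without any 1 experiment, the mouse serum call also without any 1 of the 6 arrays compared other than mouse serum G, and the calf serum call without the calf serum I array with LPS.

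The brakes on receptor signalling moved both ways. Of 8 tested, 4 rose over media, led by Socs3 (7.12 ± 0.25) and Usp18 (4.48 ± 0.14), which bind and restrain cytokine receptors or their kinases, and Ptpn2 (1.40 ± 0.04), a phosphatase of JAK and STAT proteins. The phosphatases Ptpn1 and Ptpn6 fell by 0.50 and 0.28. Of all genes tested 28.9% were called higher over media and 50.5% lower. With LPS, Ptpn1, which is known to dephosphorylate Tyk2, was higher than in no serum by 0.42 with calf (adjusted p = 0.0070) and 0.71 with mouse serum (2.3e-05). The calf serum call of Ptpn1 was lost without the calf serum H array with LPS (0.32, 0.0621), without experiment H or I, and with the mean of its probe sets (0.10, 0.680). Ptpn6 was higher by 0.69 in calf serum (3.3e-05). Its lower level in mouse serum (-0.29, 0.0489) lay at the threshold, and the call was lost without any 1 experiment and without any 1 of the arrays compared other than mouse serum G. Without LPS the Ptpn6 means were 10.33 in no serum and 9.32 in mouse serum. Its LPS response in mouse serum minus that in no serum was 0.73 (adjusted p = 0.0012 in limma), a call lost without experiment I (0.75, 0.0558). Socs1 did not pass the filter, and with LPS no brake was called between human serum and no serum. The LPS response of Ptpn1 in human serum minus that in no serum was 0.85 (adjusted p = 0.00051 in limma), where 4.96% of all genes were called. That call was lost with the mean of the Ptpn1 probe sets (0.56, 0.0532). Without LPS 2 of the 8 brakes were called lower in human serum than in no serum, where 10.4% of all genes were called. Among all genes with LPS, 5% were called higher with calf and 6.82% with mouse serum, and 6.58% lower with mouse serum.

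Of the other interferon receptors, Ifngr1, the ligand-binding chain for interferon-gamma, was lower with LPS in every serum than in no serum. It measured 10.11, 10.18 and 10.14 in no serum, 8.98, 8.75 and 9.21 with calf, 8.49, 9.06 and 8.72 with mouse and 9.36, 8.97 and 9.19 with human serum. All arrays in no serum lay above those in serum. The differences with LPS were -1.16 with calf (adjusted p = 3.3e-06), -1.39 with mouse (1.6e-07) and -0.97 with human serum (5.4e-05). Ifngr1 was lower in serum without LPS too, with control means of 9.81 in no serum, 9.48 with calf, 9.003 with mouse and 9.06 with human serum. All control arrays in no serum lay above those in serum. The LPS response of Ifngr1 in mouse or human serum did not differ by a call from that in no serum. Its LPS response was 0.34 in no serum (0.0391) and -0.50 in calf serum (0.0033), and these differed by -0.84 (0.0210). That difference lost its call without any 1 experiment, the H array with LPS of calf serum or no serum, the calf serum H or I control, or the no-serum I control. Of the 3 genes tested among other interferon ligands and receptors, Ifngr2 was called higher in mouse serum than in no serum with LPS, with means of 10.50 and 10.01. With LPS 5.85% of all genes were called lower with calf, 6.58% with mouse and 2.64% with human serum, and 6.82% higher with mouse serum.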

How the data were processed

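RNA of 24 samples was labelled and hybridised singly to Affymetrix mouse arrays. The authors deposited log2 levels, a value for each probe set, and the base was inferred from their range. GCRMA and Partek are named in the submitters' processing notes. Genes were named from the platform table, and of 45101 probe sets 34945 named 1 gene, 932 several and 9160 none. Probe sets above 5.082, the overall median, on 3 or more arrays were kept, and the brightest stood for a gene. A model with 1 mean per group was fitted in limma 3.58.1 (R 4.3.3, empirical Bayes with trend and robust), with two-sided tests in 23 comparisons and Benjamini-Hochberg adjustment within each over 11785 genes. The code was tested on simulated data. The number of arrays limits the precision. The 6 genes are named throughout, with at most 4 genes per list and direction by LPS response, the genes called between sera, and the 6 genes most like Ifnb1. Members and lists were chosen with earlier results of these data known. Array plots used Python 3.11.15 and matplotlib 3.10.9. Promoter windows come from RefSeq (GRCm38.p6), where all 6 genes matched. Alternatives changed the experiment or the file-name batch as a block, scaling, filter, probe set rule, fit and arrays. The file-name batch is a number read from the names of the array files. It follows the experiment except for the calf serum control of H, which carries the number of G. Whether that is right is not known. Raw array images were not used here.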

Additional observations from a re-analysis of the deposited data

Results flagged for a closer look

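The LPS response of Ifnb1 differed between media by the test of that difference. Against no serum the difference was -2.33 ± 0.45 in fetal calf serum (adjusted p = 0.0054 in limma) and -3.33 ± 0.45 in mouse serum (3.4e-05), and mouse minus human serum gave -2.23 ± 0.45 (0.0176). For mouse against no serum the direction was the same in 3 of 3 experiments. With arrays or experiments left out, the mouse minus human call was lost in 7 of 27 fits (-2.55 to -1.68), and the calf minus no serum call was lost without experiment H (-1.80, 0.219).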

How the results depend on the processing

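Of 138 values of the 6 genes in 23 comparisons, 9 other settings gave 1242 values, of which 1196 kept direction and call, 20 lost a call, 25 gained one and 1 reversed. The 27 fits without an array or an experiment gave 3726, of which 68 lost and 15 gained a call and 0 reversed. Where no value below bears on it, the cause was not tested. The labels call G, H and I replicate experiments. Deviations of 84 same-letter pairs correlated at a median of 0.062, against -0.035 for different letters, and 20 of 24 arrays lay closest to their own letter, a hint from the data. As only 17 of the 84 pairs were over 0.1, the block was kept as an alternative.

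With a replicate block of experiments, Ifnb1 in mouse against calf serum with LPS was called (-0.91, adjusted p = 0.0482), as was the Ifnar2 response in human serum (0.28, 0.0113) and over media (0.13, 0.0136). The replicate block raised the count of genes whose LPS response differed between mouse and human serum from 74 to 133, and called Tyk2 in human against calf serum without LPS (-0.26, 0.0484). With the file-name batch as a block Ifnar2 gave 0.28 (0.0219) and 0.15 (0.0119), the Ifnb1 response in human minus calf serum 1.38 (0.0423), and that count was 114. With plain empirical Bayes it was 41. In fits of only the groups compared, genes called with LPS fell from 1279 to 728 for calf against no serum and from 639 to 308 for mouse against calf serum. With arrays or experiments left out, 62 of 621 counts of genes called moved by over 1.5 times, down to 0.106 of the count printed as background, most of them in the fits without an experiment.

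Ifnb1 in human minus no serum with LPS lost its call under quantile normalization (-1.05, 0.05), without a filter (-1.09, 0.0680), with plain empirical Bayes (-1.09, 0.0684) and with only the groups compared (-1.09, 0.0588). In human minus calf serum it lost it without a filter (1.12, 0.0533) and with plain empirical Bayes (1.12, 0.0529). The Ifnar1 response in calf serum lost it under quantile normalization (0.19, 0.0855), without a filter (0.24, 0.0541) and with only the groups compared (0.24, 0.0990). With the mean of probe sets it reversed to -0.094 (0.494), the no-serum response of Ifnar1 was 0.26 (0.0599), and Ifnar2 was called at 0.59, 0.57, 0.70, 0.87 and 0.68 in no serum, calf, mouse, human serum and over media. That mean takes in the dimmer probe sets described above, and it also ended the calls of Tyk2 between media. Fits of only the groups compared ended the call of Ifnar1 in mouse against no serum with LPS (0.34, 0.0999), and those of Tyk2 in mouse against calf serum with (-0.42, 0.0643) and without LPS (-0.47, 0.0564) and in human against no serum without LPS (-0.33, 0.114).

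With arrays or experiments left out, Ifnb1 with LPS ran from -1.34 to -0.75 in human minus no serum, where the call was lost without any 1 experiment, human serum LPS G, H or I, no-serum LPS H or I, mouse serum LPS I, any human serum control, any calf serum control, or the H control of no serum or mouse serum. It ran from 0.89 to 1.38 in human minus calf serum, lost without any 1 experiment, calf serum LPS G or H, or human serum LPS H or I. Mouse minus calf serum ran from -1.34 to -0.55, called without mouse serum LPS H (-1.23, 0.0357). Mouse minus human serum ran from -2.34 to -1.80. The difference in the Ifnb1 response ran from -2.94 to -1.80 for calf minus no serum, and from -2.55 to -1.68 for mouse minus human serum, lost without any 1 experiment, mouse serum LPS G, mouse serum control I, or human serum LPS H or I.

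The Ifnar1 response ran from 0.27 to 0.53 in no serum, lost without experiment I (0.27, 0.0701), and from 0.19 to 0.29 in calf serum, lost without any 1 experiment, calf serum control G or H, or calf serum LPS G or I. That of Ifnar2 ran from 0.15 to 0.41 in human serum, called without the G control or the I array with LPS, and from 0.095 to 0.17 over media, called without the mouse serum G control.

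Centring arrays or quantile normalization moved the median LPS response of all genes by under 0.1.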
